A study of Mus musculus with 12 samples.

Results

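The mouse mitochondrial genome carries 22 tRNA genes and, between neighbouring genes, 15 short spacers, and the read depth, read direction, mismatches and deletions over these 37 regions are described here for hearts that lack PTCD1 and for wild-type hearts. The regions were taken as every position from 1 to 15422 of the mitochondrial chromosome (mm10 chrM) that lies outside the rRNA and mRNA intervals. This left 1547 positions, 1490 of them in tRNA genes and 57 in spacers, which is 10.03% of that range and 37 of the 53 regions into which the chromosome was divided. Total heart RNA was sequenced in 12 libraries. They form 4 groups of 3, from PTCD1 knockout (KO) or wild-type (WT) hearts, either left untreated or exposed to CMC, a carbodiimide that forms adducts on pseudouridine that can block or disturb reverse transcription. Cytoplasmic ribosomal RNA was depleted from all of them. The labels give the genotype, the tissue, the treatment and a replicate number. They name no promoter or Cre line, no age, sex or strain, and do not say whether replicates come from different mice. Every p therefore reflects the spread among these libraries, which may be technical.

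Mitochondrial RNA is made as long transcripts of both strands, in which tRNAs sit between the rRNAs and mRNAs and mark where the chain is cut. The RNase P complex cuts before a tRNA and ELAC2 after it, the CCA end is then added, and many bases of the tRNA are modified. PTCD1, a pentatricopeptide repeat protein, is known for its part in the maturation of 16S rRNA, whose gene mt-Rnr2 lies between the tRNA genes mt-Tv and mt-Tl1. Base 9 of many mitochondrial tRNAs carries a methyl group placed by TRMT10C, a subunit of the same RNase P complex, which can leave mismatches in sequencing reads. The longest spacer holds the origin from which the other DNA strand is replicated.

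The sequences on which the results turn are printed 5′ to 3′ on the strand of the gene, from the GENCODE M21 annotation and the mm10 mitochondrial genome. The tRNA genes for phenylalanine and valine frame the 12S rRNA gene, the leucine gene mt-Tl1 follows 16S rRNA directly, and mt-Tl2 is the other leucine gene. In these 4 the capital marks base 9.
mt-Tf, chrM:1-68, plus strand: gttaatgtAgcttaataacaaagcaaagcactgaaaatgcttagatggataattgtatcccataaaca
mt-Tv, chrM:1025-1093, plus strand: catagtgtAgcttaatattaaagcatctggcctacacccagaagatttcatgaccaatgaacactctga
mt-Tl1, chrM:2676-2750, plus strand: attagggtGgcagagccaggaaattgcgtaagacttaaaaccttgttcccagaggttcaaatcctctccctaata
mt-Tl2, chrM:11671-11741, plus strand: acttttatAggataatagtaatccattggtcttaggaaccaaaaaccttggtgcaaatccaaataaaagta
The cysteine gene mt-Tc held 4 of the 10 tRNA positions with the highest mean share of mismatches plus deletions, and the 3 highest of the 4 are in capitals. The arginine gene mt-Tr has a run of 8 A in capitals, before which most reads carried an insertion. The spacer of 32 bases between mt-Tn and mt-Tc, the origin of replication, had deletions in 2.89% or more of the reads of every library at the A in capitals.
mt-Tc, chrM:5192-5257, minus strand: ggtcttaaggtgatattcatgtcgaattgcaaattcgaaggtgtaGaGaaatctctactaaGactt
mt-Tr, chrM:9808-9875, plus strand: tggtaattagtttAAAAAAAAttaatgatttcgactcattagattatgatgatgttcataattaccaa
origin spacer, chrM:5160-5191, plus strand: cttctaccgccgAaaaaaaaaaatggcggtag

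The libraries held 10389398 to 12462093 counts in genes, of which 2683284 to 3187748 were in nuclear genes. Ptcd1, the targeted gene, had 28, 17 and 19 counts in untreated KO and 78, 71 and 74 in untreated WT libraries (log2 difference -1.93, adjusted p = 3.08e-19 by edgeR's quasi-likelihood test with Benjamini-Hochberg adjustment), and the difference after CMC was -1.96. Heart muscle markers were high in every library, with Myh6 at 17323 or more per 1000000 nuclear counts. The liver marker Alb stood at 0.356 or less. Depth means the number of reads that cover a base, averaged over the bases of a region and divided by a scaling factor of the library from its nuclear genes. Steps up in the depth of forward reads were matched by steps down 75 bases later in all 12 libraries. This was taken as the length of an aligned read, and tRNA genes are 59 to 75 bases long. A read over a tRNA gene may come from the tRNA, from an uncut precursor or from a neighbouring transcript on either strand, and depth does not tell these apart. Fewer heart muscle cells and less RNA per cell cannot be told apart either.

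The tRNA genes and spacers took a small share of mitochondrial reads, and a larger one in KO. Of all bases aligned to chrM, 0.548% to 0.571% lay in these regions in the untreated KO libraries and 0.213% to 0.216% in the untreated WT libraries. After CMC the share was 0.343% to 0.355% in KO and 0.163% to 0.180% in WT, so the ranges of the groups did not overlap. In untreated WT hearts depth per base ranged 126-fold among tRNA genes, from 60.1 ± 10.4 (SD, n = 3) over mt-Tk to 7590 ± 137.2 over mt-Ts1. Next below mt-Ts1 came mt-Te, mt-Tn, mt-Tl1 and mt-Ta, of which mt-Tl1 and mt-Ta overlapped. Of the 21 steps between neighbours in this order, 8 were between genes whose libraries overlapped, among them those from mt-Tl2 through mt-Td, mt-Tf and mt-Tv to mt-Tt. In untreated KO hearts mt-Tl1 came to the top at 17460 ± 556.7, followed by mt-Tn, mt-Ts1 and mt-Ta, and 4 of 21 neighbouring pairs overlapped.

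**Figure D1:**
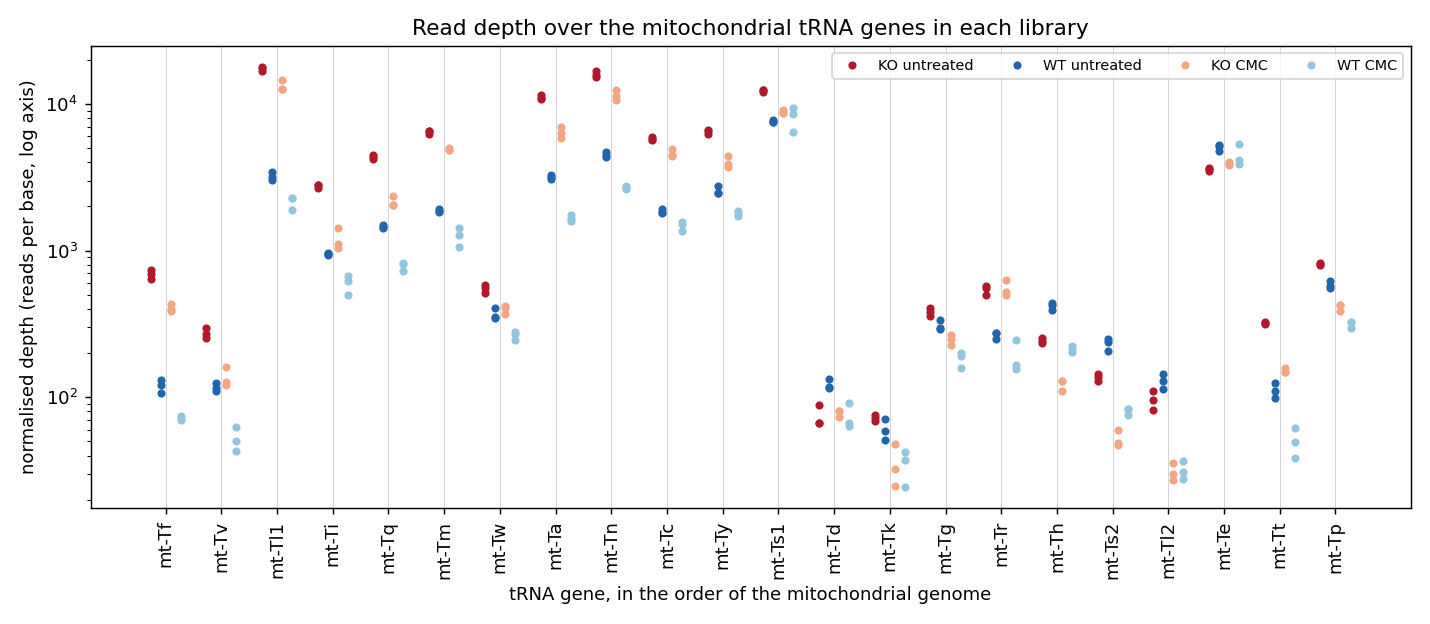
Normalised depth (reads per base, log axis) over each of the 22 tRNA genes in genome order, with a point for each of the 12 libraries coloured by group. With this nuclear scaling, depth over mt-Tf, mt-Tl1 and the genes from mt-Ti to mt-Ty is higher in untreated KO than in untreated WT (mt-Tw turns lower when scaled by mRNA depth, at -0.65), while depth over mt-Td, mt-Th, mt-Ts2, mt-Tl2 and mt-Te is lower in untreated KO.

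Untreated KO hearts had more depth over most tRNA genes and less over 5 of them. Of 22 tRNA genes, 16 rose, 5 fell and mt-Tk did not pass between untreated KO and WT hearts (limma on log2 depth, Benjamini-Hochberg adjusted). Of all 53 regions tested, 94.3% passed, 75.5% higher and 18.9% lower, shares close to those among the tRNA genes. Their median log2 difference was 1.12, against 1.02 over all regions. Scaled instead by the depth over the 13 mitochondrial mRNA genes, which itself was higher in KO, all differences shift by -1.24 and the split becomes 9 higher and 11 lower. The genes that rose under both scalings were mt-Tf, mt-Tl1, mt-Ti, mt-Tq, mt-Tm, mt-Ta, mt-Tn, mt-Tc and mt-Tt, and those that fell under both were mt-Td, mt-Th, mt-Ts2, mt-Tl2 and mt-Te.

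All 3 tRNA genes next to an rRNA gene rose, with mt-Tf and mt-Tl1 showing the largest differences of all 22. Over mt-Tf, which opens the genome before 12S rRNA, normalised depth was 644, 734 and 690.1 in untreated KO and 107, 122 and 131 in untreated WT libraries. The lowest KO library thus lay far above the highest WT library, a 5.71-fold difference (log2 2.51, SE 0.08, limma, Benjamini-Hochberg adjusted p = 1.58e-07; 1.28 when scaled by mRNA depth). Over mt-Tl1, which decodes leucine UUR codons and directly follows 16S rRNA, depth was 17663, 17887 and 16831 in KO against 3028, 3457 and 3195 in WT. It rose 5.42-fold (log2 2.44, SE 0.06, adjusted p = 3.49e-08; 1.20 when scaled by mRNA depth), although depth over mt-Rnr2 itself fell by 2.77 on the log2 scale. Over mt-Tv, between the rRNA genes, depth was 255, 270.2 and 296 in KO and 111, 126 and 115 in WT. This was a smaller rise of 2.32-fold (log2 1.21, SE 0.07, adjusted p = 3.67e-06), which did not hold when scaled by mRNA depth (-0.02, limma adjusted p = 0.749). Depth over mt-Rnr1 rose by 1.92 on the log2 scale. Depth over 16S rRNA in untreated WT came close to the highest value of the deposited tables, 1000000 reads, 54 to 57 bases from mt-Tv, which is less than a read length. Untreated KO libraries also reached 992619 to 994881 reads. Their positions of at least 900000 reads came as near as 81 to 82 bases to mt-Tf, within 12S rRNA. Whether this limited depth over mt-Tv or over the rRNA genes was not tested.

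Among the other tRNA genes the largest rises were over mt-Tn, mt-Ta and mt-Tm, which carry asparagine, alanine and methionine. Over mt-Tn (chrM:5089-5159, minus strand) depth was 16775, 15796 and 15377 in untreated KO libraries and 4719, 4459 and 4377 in untreated WT libraries (log2 1.82, SE 0.05, limma adjusted p = 4.70e-08; 0.59 when scaled by mRNA depth). mt-Ta (chrM:5018-5086, minus strand) stood at 11595, 11008 and 10756 in KO and 3282, 3169.9 and 3073 in WT (1.81, SE 0.04; 0.57 when scaled by mRNA depth). These 2 genes adjoin each other, and over both the KO libraries lay above the WT libraries with no overlap, 3.54-fold for mt-Tn. mt-Tm (chrM:3845-3913, plus strand), whose tRNA starts and extends all mitochondrial proteins, stood at 6538, 6575 and 6287 in KO and 1862, 1908 and 1835 in WT (1.79, SE 0.03; 0.55 when scaled by mRNA depth). Of the 8 tRNA genes on the strand that carries fewer genes, 7 rose and mt-Te fell, with a median log2 difference of 1.46. Of the 11 genes on the strand with most genes and not next to rRNA, 6 rose and 4 fell, with a median of 0.30. Scaled by mRNA depth, mt-Ts1 (-0.54) and mt-Tp (-0.77) of the 8 fell, mt-Ty (0.10) did not pass, and mt-Tq, mt-Ta, mt-Tn and mt-Tc still rose. Of the 11, mt-Tw (-0.65), mt-Tg (-0.93), mt-Tr (-0.22) and mt-Tk (-0.97) then fell, while mt-Ti, mt-Tm and mt-Tt still rose. Depth does not separate the strands.

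Depth fell over the cluster of 3 tRNA genes between mt-Nd4 and mt-Nd5, and over mt-Td and mt-Te. Over mt-Th (histidine, chrM:11546-11612, plus strand) depth was 233, 242 and 254 in KO and 436, 395 and 426 in WT libraries (log2 -0.78, SE 0.05, limma adjusted p = 7.05e-06). mt-Ts2 (serine, AGY codons, chrM:11613-11671, plus strand) followed with 129, 144 and 137 against 238, 206 and 249 (-0.75, SE 0.08, adjusted p = 8.82e-05). They were 1.72-fold and 1.69-fold lower in KO, with no overlap. mt-Tl2, the leucine CUN tRNA gene, had 81.3, 110.2 and 94.96 in KO and 144, 113 and 130 in WT, a difference of -0.43 (SE 0.13, limma adjusted p = 0.0173) that no longer passed without untreated WT replicate 3 (adjusted p = 0.0528) or when scaled by nuclear totals (adjusted p = 0.0515). On the same nuclear scaling, depth over the mRNA genes on both sides was higher in KO, by 1.08 for mt-Nd4 and 0.11 for mt-Nd5. mt-Td (aspartate, chrM:6942-7011, plus strand) stood at 88.8, 66.7 and 67.1 in KO against 116, 133 and 117 in WT (-0.72, SE 0.12, adjusted p = 0.00116). mt-Te (glutamate, chrM:14071-14139, minus strand), which lies directly before mt-Nd6 on the same strand, differed by -0.51 (SE 0.05, adjusted p = 4.30e-05).

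**Figure D2:**
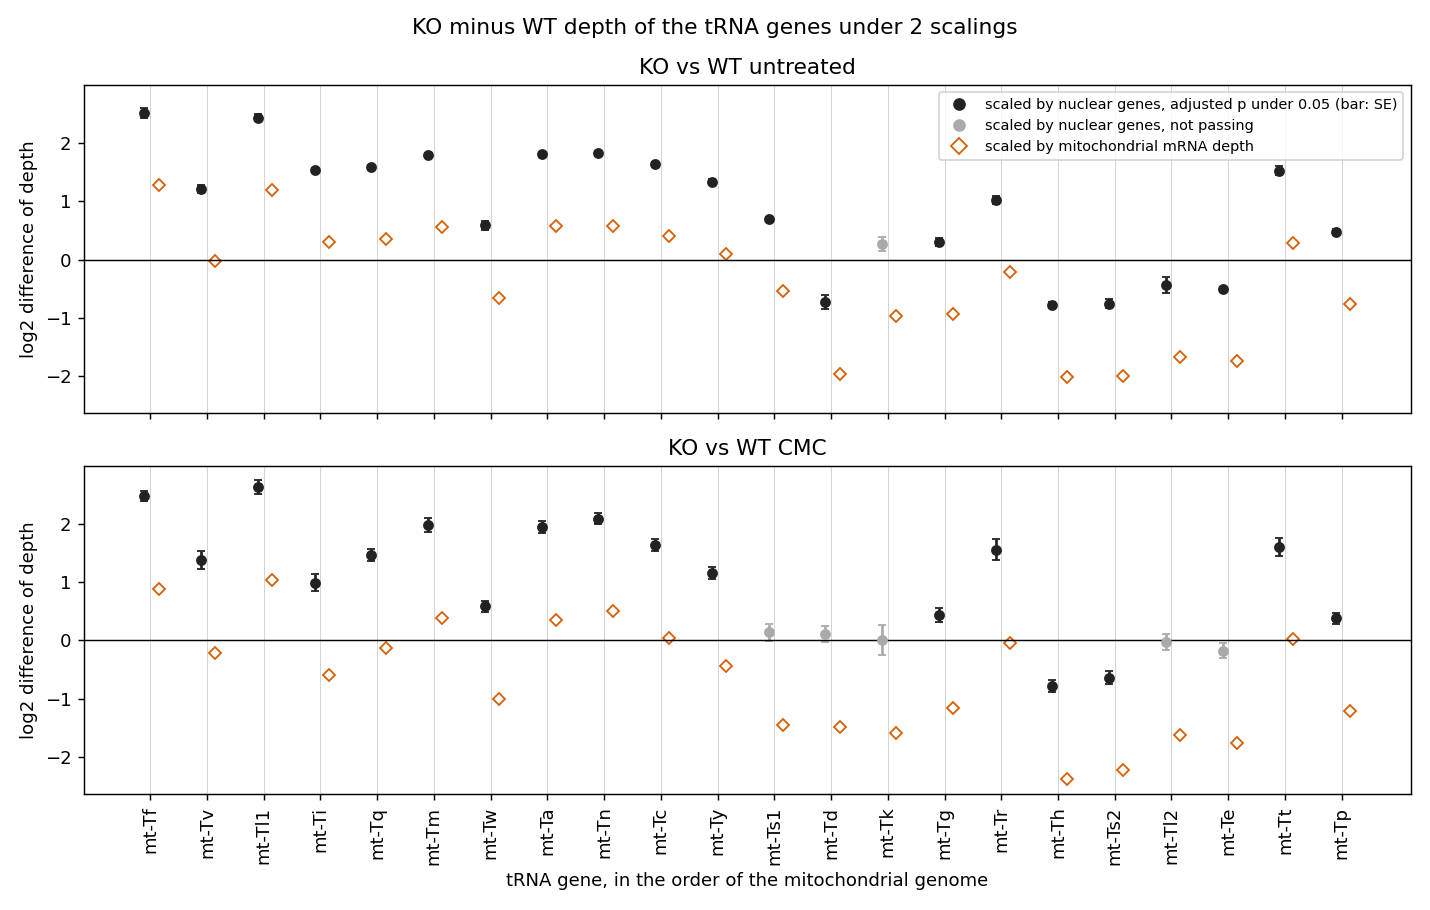
Log2 difference of depth, KO minus WT, for each tRNA gene in untreated (top) and CMC (bottom) libraries, with n = 3 libraries a group. Filled points with SE bars are scaled by nuclear genes, grey where the adjusted p did not pass, and open diamonds are scaled by mitochondrial mRNA depth, which moves every gene down by 1.24 in untreated and 1.59 in CMC libraries.

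Set against the rRNA or mRNA gene on each side, tRNA genes had little depth, and most of them less in KO. The ratio of depth over a tRNA gene to the geometric mean of its flanking genes had a median over the 22 genes of 0.0187 in untreated KO, against 0.0290 in untreated WT. By this measure 7 rose, 14 fell and mt-Ty did not pass (limma, Benjamini-Hochberg adjusted over the 22 genes, of which 95.5% passed, 31.8% higher and 63.6% lower). mt-Tl1 stood out with a ratio of 0.191 in KO and 0.0273 in WT (log2 2.81, limma adjusted p = 9.85e-10), followed by mt-Tv with 0.00193 and 0.000618 (1.64). Both have 16S rRNA, which fell, in their denominator. mt-Tf (0.60), mt-Tt (0.60), mt-Tn (0.51), mt-Ta (0.49) and mt-Tc (0.33) were also higher. The lowest differences were over mt-Td (-1.61), mt-Th (-1.38), mt-Ts2 (-1.35), mt-Tk (-1.04) and mt-Tl2 (-1.03). After CMC 4 rose, again led by mt-Tl1 (2.69) and mt-Tv (1.72), and 15 fell, where 86.4% of the 22 genes passed, 18.2% higher and 68.2% lower. The ratio does not depend on the scaling between libraries. For mt-Tf, mt-Tv and mt-Tl1 it does depend on depth over the rRNA genes, which came close to the highest value of the deposited tables. Whether that limited these ratios was not tested.

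**Figure D3:**
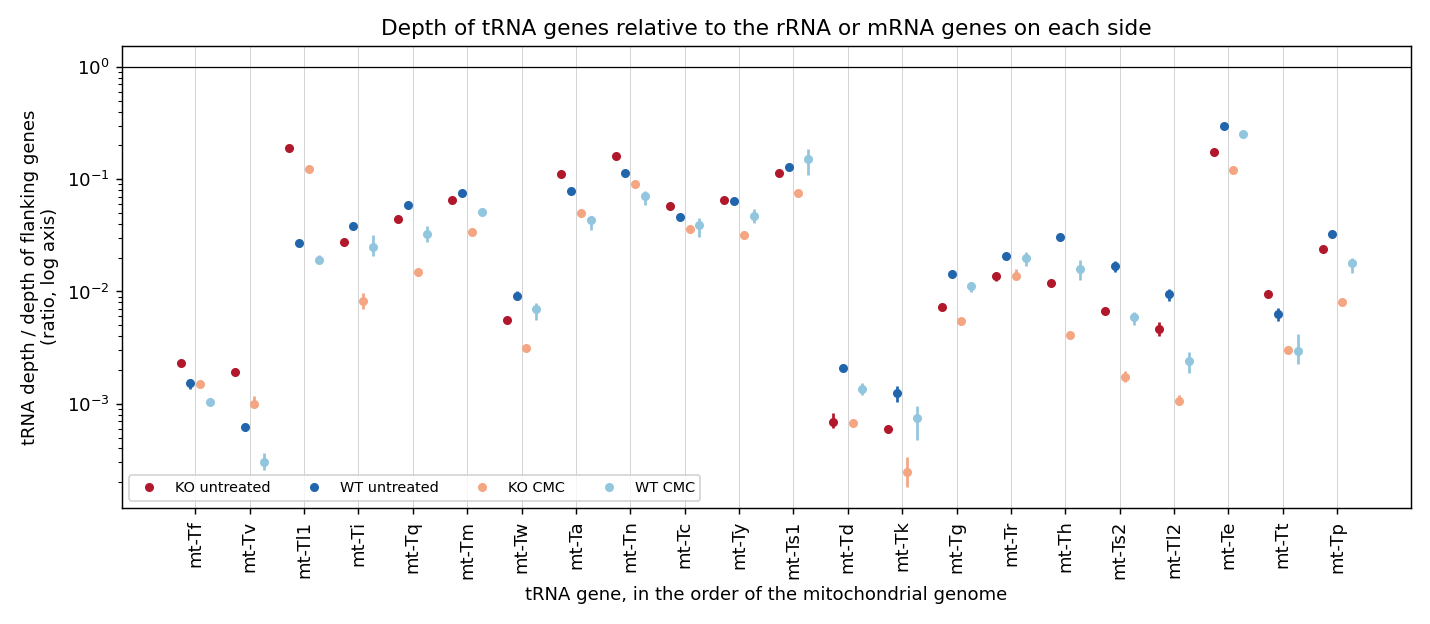
Ratio of depth over each tRNA gene to the geometric mean depth of the rRNA or mRNA gene on each side (log axis); points are means of 3 libraries and vertical lines run from the lowest to the highest. All ratios lie below 1, and mt-Tl1 and mt-Tv are higher in KO while mt-Td, mt-Th, mt-Ts2 and mt-Tl2 are lower.

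Depth was not even along the tRNA genes. Over the 10 bases at the 5′ end of mt-Tl1 depth was 10226 to 11203 in untreated KO and 1668 to 1808 in untreated WT libraries, and over the 10 bases at its 3′ end 22785 to 24015 and 4241 to 4847. It thus rose towards mt-Nd1 in both genotypes. mt-Tf had 35.7 to 63.1 reads a base at its 5′ end in KO and 9.56 to 13.7 in WT, and 1424 to 1601 and 220.4 to 274 at its 3′ end, so most of its depth lay beside 12S rRNA. The chromosome starts with mt-Tf in the reference although the molecule is a circle. In the cluster behind mt-Nd2, the tryptophan gene mt-Tw, on the plus strand, had low depth, 552 ± 34.7 (SD, n = 3) in KO and 368 ± 31.3 in WT, and the neighbouring mt-Ta rose from 712 to 781 at its 3′ end to 20752 to 22649 at its 5′ end in KO (471 to 492 and 5713 to 6171 in WT). mt-Ts1 reached its depth beside mt-Co1: the log2 ratio of its last 10 bases to its first 10 was 9.10 in KO and 9.27 in WT. Depth over mt-Ts1 therefore lay almost wholly next to the end of mt-Co1, on whose opposite strand it sits.

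**Figure D4:**
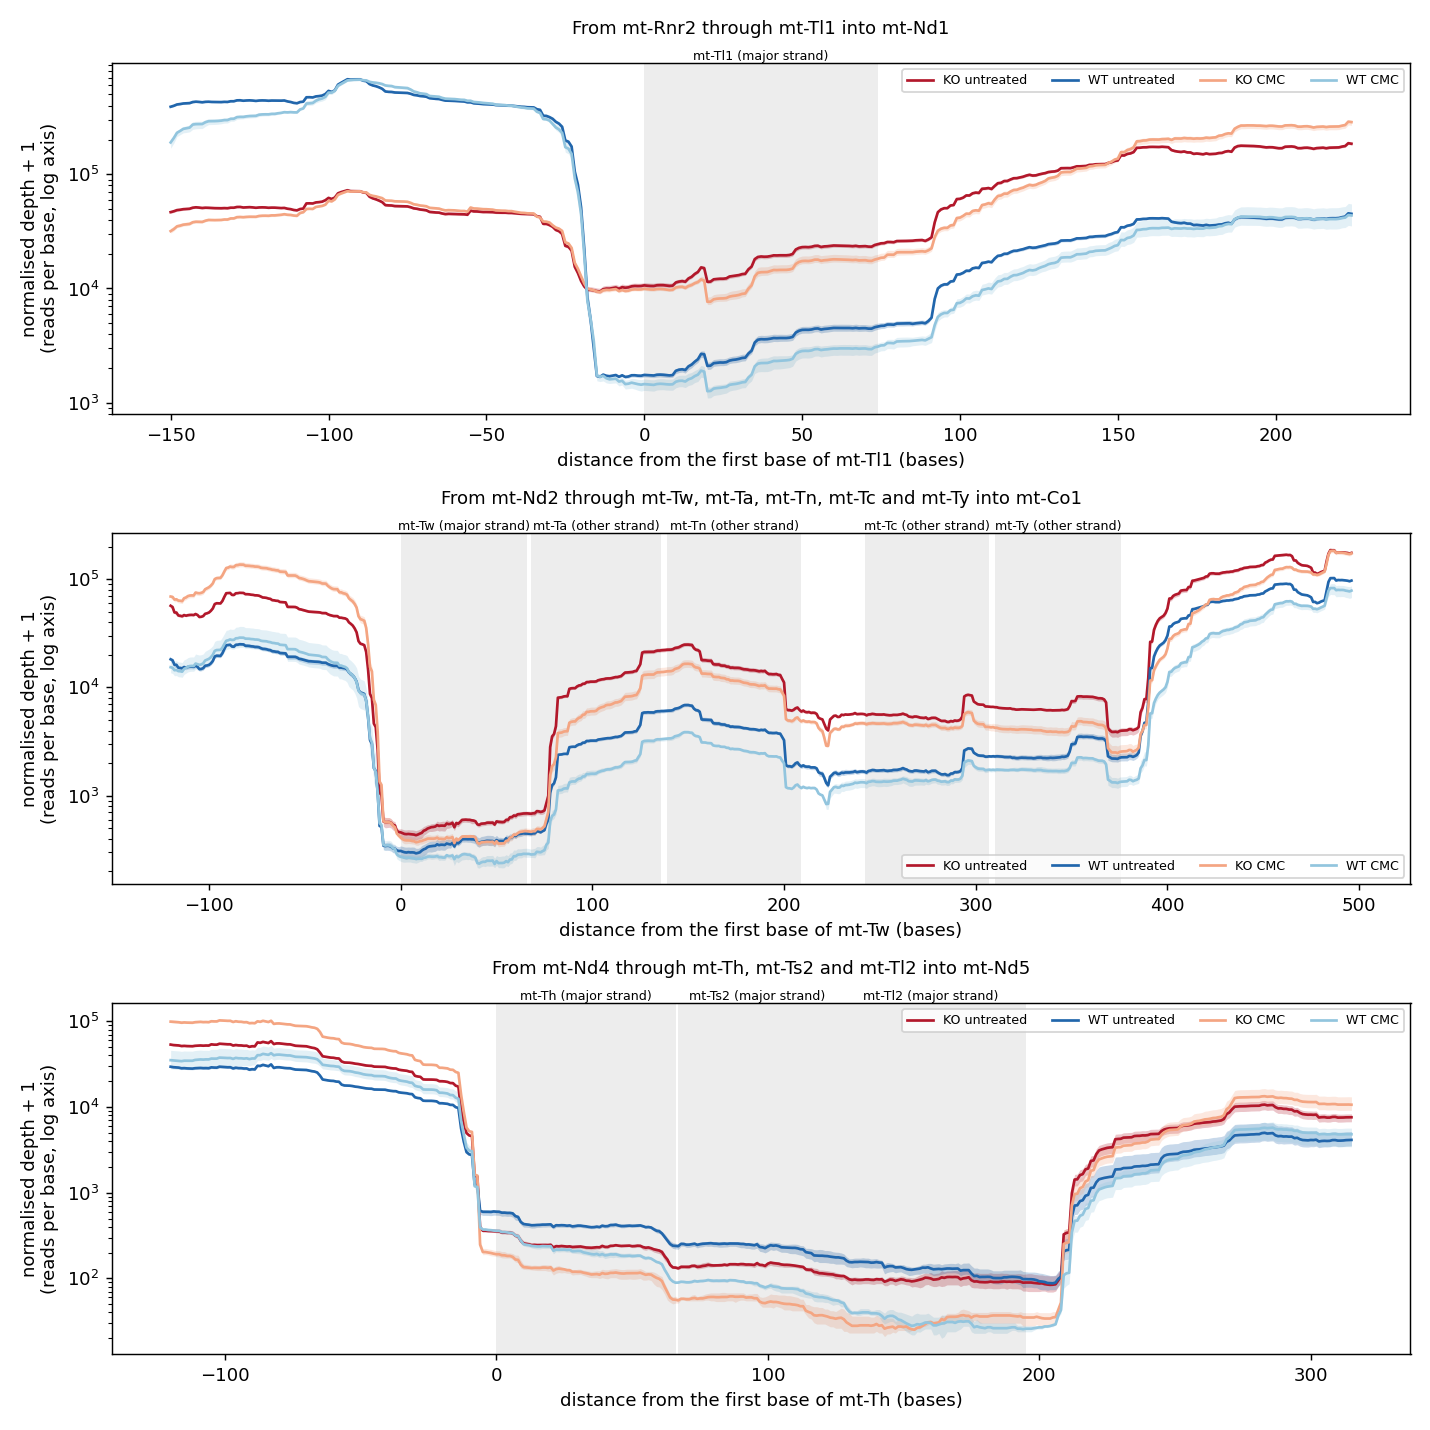
Normalised depth plus 1 (log axis) against distance in bases from the start of mt-Tl1 (top), mt-Tw (middle) and mt-Th (bottom); lines are means of 3 libraries, bands their range, and grey boxes the tRNA genes. With nuclear scaling, mean depth in KO is above WT over mt-Tl1 and the cluster from mt-Tw to mt-Ty (mt-Tw turns lower when scaled by mRNA depth, at -0.65), and below WT over mt-Th and mt-Ts2 in untreated libraries.

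Counts per gene, which assign whole fragments to genes, held little of this depth. Summed over all tRNA genes they came to 42 to 60 in untreated KO and 10 to 12 in untreated WT libraries. After CMC they were higher in both genotypes, at 84 to 109 in KO and 24 to 33 in WT, whereas depth over most tRNA genes was lower after CMC. mt-Tm alone had 80, 62 and 56 counts in KO CMC and 22, 14 and 16 in WT CMC libraries, and this change with CMC was not tested. Only mt-Tl1 and mt-Tm had enough counts to be tested. mt-Tl1 had 13, 16 and 11 counts in untreated KO and 0, 4 and 1 in WT, and mt-Tm 36, 30 and 22 against 8, 8 and 8. Both rose, by 2.78 and 1.72 on the log2 scale (edgeR, adjusted p = 2.02e-06 and 2.55e-07), among 12228 genes tested of which 57.9% passed. After CMC mt-Tl1 rose by 2.27 and mt-Tm by 1.95, where 54.3% of 12144 genes passed.

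In CMC libraries the tRNA genes next to rRNA again had more depth in KO, and mt-Th and mt-Ts2 less. Of 22 tRNA genes, 15 were higher in KO, 2 were lower and 5 did not pass (limma, Benjamini-Hochberg adjusted), where 81.1% of the 53 regions passed, 73.6% higher and 7.55% lower. Scaled by mRNA depth the split was 5 higher and 12 lower. Depth over mt-Tl1 was 12675, 14546 and 12671 in KO and 2290, 1879 and 2293 in WT after CMC (log2 2.63, SE 0.11, limma adjusted p = 1.04e-07; 1.04 when scaled by mRNA depth), and over mt-Tf 401, 435 and 390 against 74.4, 72.4 and 70.4 (2.48, SE 0.09; 0.89 when scaled by mRNA depth). mt-Tv stood at 126, 162 and 122 in KO and 43.2, 50.1 and 63.0 in WT (1.38, SE 0.16; -0.21 when scaled by mRNA depth). All 3 genes next to rRNA thus kept separate groups. Of the other genes mt-Tn rose most, with 12467, 11317 and 10695 in KO against 2745, 2712 and 2633 in WT (2.09, SE 0.09; 0.49 when scaled by mRNA depth). mt-Tm stood at 4849, 5041 and 4830 in KO against 1272, 1060 and 1419 in WT (1.98, SE 0.12; 0.39 when scaled by mRNA depth). The falls were over mt-Th, at 130, 128 and 110.4 in KO against 202, 223 and 212 in WT (-0.79, SE 0.10), and mt-Ts2, at 59.3, 48.4 and 46.9 against 82.8, 76.1 and 82.9 (-0.64, SE 0.11). mt-Tl2 had 35.7, 30.0 and 27.3 in KO and 36.9, 27.5 and 30.8 in WT, so its groups overlapped (-0.03, limma adjusted p = 0.852; -1.62 when scaled by mRNA depth).

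CMC treatment went with less depth over tRNA genes in both genotypes. In WT 20 of 22 tRNA genes were lower after CMC (limma, Benjamini-Hochberg adjusted; 18 when scaled by mRNA depth), against 60.4% of all 53 regions, and the median log2 difference was -0.74 over tRNA genes and -0.53 over all regions. In KO 19 were lower and mt-Te was higher (21 lower and 0 higher when scaled by mRNA depth), while 84.9% of all regions passed, 62.3% lower and 22.6% higher. The median over the 13 mRNA genes was -0.01 in WT and 0.34 in KO. mt-Tl2 fell most, by 1.99 in WT (3.98-fold lower) and by 1.59 in KO (3.01-fold lower). mt-Ts2 followed with -1.51 in WT and -1.39 in KO. The smallest falls that passed were over mt-Tc (-0.32) and mt-Tw (-0.47) in WT and over mt-Tc (-0.33) in KO. mt-Te rose in KO by 0.12 (SE 0.04, limma adjusted p = 0.0202), a call that was lost in a fit of all 12 libraries and without untreated KO replicate 1 or 3 or KO CMC replicate 2 (adjusted p = 0.285, 0.0659, 0.0684 and 0.0571), and mt-Te fell when scaled by mRNA depth (-0.17).

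The effect of CMC differed between genotypes for 3 tRNA genes, and these calls were not stable. Over mt-Td depth fell after CMC in WT, from 116, 133 and 117 to 63.4, 66.2 and 90.7, and in KO stood at 88.8, 66.7 and 67.1 before and 73.5, 80.1 and 81.1 after (difference of the effects 0.83 on the log2 scale, SE 0.20, limma adjusted p = 0.0218). Over mt-Ts1 depth in KO went from 12428, 12109 and 12488 to 8612, 8698 and 9144, and in WT from 7492, 7747 and 7531 to 8482, 9457 and 6406 (-0.56, SE 0.16, adjusted p = 0.0218). Over mt-Ti, the isoleucine gene, it went in KO from 2794, 2782 and 2661 to 1416, 1041 and 1104, and in WT from 970.1, 926 and 941 to 500.5, 670.5 and 616 (-0.55, SE 0.17, adjusted p = 0.030). The WT CMC libraries spread widely over mt-Ts1, where replicate 3 was lowest. Of the 53 regions, 30.2% passed this test, 26.4% higher and 3.77% lower. Scaled by mRNA depth 5 tRNA genes passed, 0 higher and 5 lower, without mt-Td (0.47). The mt-Ti call was lost in 9 of 12 fits with 1 library left out. All 3 tRNA calls were lost without untreated KO replicate 3, untreated WT replicate 2 or KO CMC replicate 2, which left 0 tRNA genes, and without WT CMC replicate 3 there were 7.

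The tables also give the direction in which reads aligned. Over rRNA and mRNA genes in untreated KO libraries between 44.5% and 65.7% of read bases were on forward reads. Over tRNA genes the share ran from 5.14% to 93.4%. It was high over mt-Tf (88.3% ± 0.60 in KO, SD, n = 3, and 87.7% ± 0.93 in WT) and mt-Tv (91.5% ± 1.60 and 90.8% ± 2.54). mt-Ts1, beside the end of mt-Co1, had 5.95% ± 1.04 in KO and 6.37% ± 0.64 in WT. The direction is that of the aligned read and is no measure of the transcribed strand.

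Between genotypes the forward share changed for 11 of 22 tRNA genes in untreated libraries, 7 higher and 4 lower in KO (limma on log2 odds, Benjamini-Hochberg adjusted), where 52.6% of the 38 genes and other regions tested passed, 23.7% higher and 28.9% lower. The proline gene mt-Tp went from 94.2% ± 0.10 (SD, n = 3) in WT to 85.1% ± 1.80 in KO (log2 odds -1.49, limma adjusted p = 0.000571). Its neighbour on the other strand, mt-Tt for threonine, went from 18.8% ± 3.94 to 36.1% ± 1.66 (1.30, adjusted p = 0.00785), and mt-Tc from 61.5% ± 1.41 to 48.6% ± 0.85 (-0.76). In untreated libraries mt-Tl1 had 66.2% ± 0.45 in WT and 66.1% ± 0.34 in KO (-0.0063, limma adjusted p = 0.812), while its depth differed 5.42-fold. mt-Tl2 went from 19.7% ± 3.74 in WT to 32.7% ± 4.83 in KO (0.99, adjusted p = 0.0287). With 1 library left out, the calls for mt-Th and mt-Te were lost in 5 of 6 fits and those for mt-Tl2 and mt-Ts2 in 4 of 6. After CMC 9 genes differed, 6 higher and 3 lower, where 31.6% of 38 passed, 18.4% higher and 13.2% lower, again with mt-Tp lower (-1.10) and mt-Tt higher (0.81). mt-Tl1 was then also lower in KO, at 59.3% to 59.7% against 61.3% to 62.1% in WT (-0.13, limma adjusted p = 0.00669). The largest difference was over mt-Tl2, from 31.4% ± 8.02 in WT to 56.2% ± 6.52 in KO (1.52, limma adjusted p = 0.0356), a call that was lost in 5 of 6 fits with 1 library left out, as those for mt-Th and mt-Tc were in 4 of 6.

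**Figure D5:**
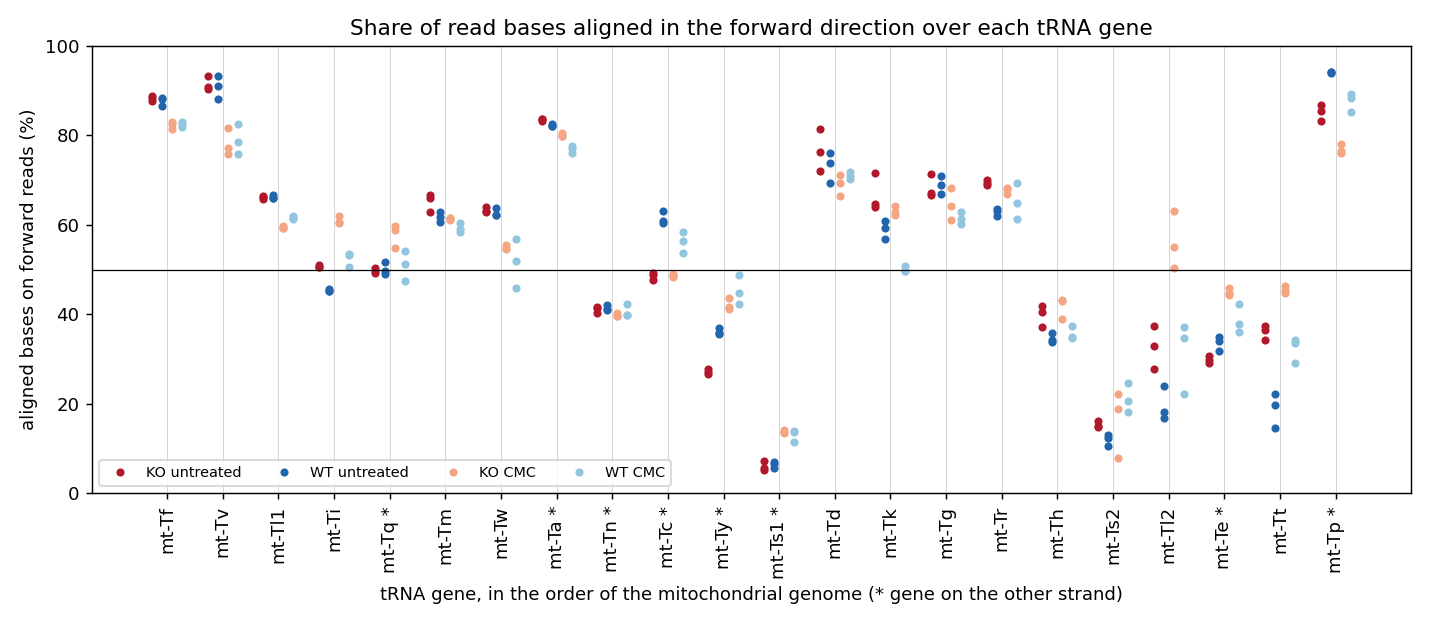
Share of aligned read bases that lay on forward reads (percent) over each tRNA gene in each of the 12 libraries; the line marks 50%, and a star a gene on the other strand. Shares range from near 5% over mt-Ts1 to over 90% over mt-Tv and mt-Tp. WT and KO stand apart in both treatments over mt-Tp, mt-Tt, mt-Tc and mt-Tl2, among others, and over mt-Ty in untreated libraries only.

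Mismatches were rare and passed no test between genotypes over whole genes. The share of mismatched bases per tRNA gene had a median over genes of 0.116% in untreated KO, 0.107% in untreated WT, 0.109% in KO CMC and 0.130% in WT CMC. In neither treatment did a gene pass (limma on log2 odds; 0 of the 22 tRNA genes and 0% of 38 tested), and 1 tRNA gene in each had an unadjusted p under 0.05. Base 9 is an A in 13 and a G in 6 of the 22 genes. In the 13 genes with at least 100 reads at base 9 in every library, its share of mismatches plus deletions ran from 0 to 1.24%, the highest in mt-Tw. Base 9 of mt-Tw lay among the 10 tRNA positions of highest mean share, with 0.406% to 1.23% in untreated KO and 0.958% to 1.24% in untreated WT libraries, where it was covered by 241 to 493 reads.

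Of the 10 tRNA positions with the highest mean share, 4 lay in mt-Tc. At its base 48, a G, the share of mismatches plus deletions was 1.93% to 2.34% in untreated KO, 2.21% to 2.58% in untreated WT, 1.90% to 2.44% in KO CMC and 1.85% to 2.12% in WT CMC libraries. Base 62 had 1.10% to 1.99% and base 46 0.459% to 1.42% in the untreated libraries, and the adjacent base 47 0.738% to 1.11%. At all 4 bases the ranges of untreated KO and untreated WT overlapped. The ranges of untreated WT and WT CMC did not overlap at base 48, nor those of KO CMC and WT CMC at base 62 (1.53% to 1.61% and 1.38% to 1.51%), and neither difference passed the test. Base 31 of mt-Tw had 0.503% to 1.48% in KO and 1.05% to 1.54% in WT untreated libraries, and base 6 of mt-Tw and base 38 of mt-Tv complete those with 26 or more reads a library. The remaining 2 of the 10, bases 3 and 5 of mt-Td, rest on 5 to 21 reads a library. Of the 5 or 6 member positions that could be tested per comparison (mean share at least 1%, depth at least 100), 0 passed in any of the 4 comparisons (limma on log2 odds), with 1 at an unadjusted p under 0.05 in untreated KO against WT and 1 in KO after CMC against untreated. Over all chrM positions tested, 9.52% passed in untreated KO against WT (4.76% higher, 4.76% lower) and 0% in each of the other comparisons.

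In KO more deletions were counted after CMC at 2 adjacent bases near the 3′ end of mt-Tl1. These bases entered the test only through their counts in the CMC libraries. At base 64 there were 7, 4 and 0 deletions among 24008 to 26147 reads in untreated KO libraries and 11, 20 and 15 among 15801 to 18809 in KO CMC libraries, and at base 65 there were 8, 4 and 0 against 14, 20 and 17. All 3 CMC libraries lay above all 3 untreated libraries, at shares of 0.0616% to 0.108% against 0 to 0.0306% (log2 2.54 and 2.57, edgeR quasi-likelihood test with depth as offset, Benjamini-Hochberg adjusted p = 1.05e-05 and 3.21e-06). Counts at the 2 adjacent bases were nearly the same in each library, so the same reads may hold both deletions, which was not tested. In WT, where too few deletions were seen for the test, base 65 had 2, 0 and 0 deletions untreated and 4, 7 and 5 after CMC, among 2739 to 4596 reads. Of 6 member positions tested in KO, 4 passed, all higher, while 52.7% of the 1994 chrM positions tested passed, 52.6% higher. The other 2 were base 13 of the origin spacer, with 2.89% to 3.42% untreated and 3.88% to 4.10% after CMC (log2 0.35, edgeR adjusted p = 0.0203), and the first base of the mt-Tc to mt-Ty spacer (2.76, adjusted p = 0.00179), where 0, 2 and 2 deletions became 6, 11 and 1. A position was tested if its deletions summed to at least 20 over the libraries compared. The mt-Tl1 bases and the mt-Tc to mt-Ty base reached 20 only through the CMC libraries. The filter thus favoured a call of higher after CMC at these bases. Their p-values, and the count of 4 that includes them, therefore give no support for an increase. In WT neither of the 2 positions tested passed (edgeR; 0 also at an unadjusted p under 0.05), and 68.1% of 1783 chrM positions did. Between genotypes 0 of 2 passed in untreated libraries, where base 13 of the origin spacer had an unadjusted p under 0.05, and 0 of 6 after CMC (edgeR; 0 at an unadjusted p under 0.05), while 0.492% (0.164% higher, 0.328% lower) and 1.15% (0.0796% higher, 1.07% lower) of all chrM positions tested passed.

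Insertions were frequent at 2 runs of A. At base 13 of mt-Tr, just before its run of 8 A, insertions were found in 71.7% to 77.0% of reads in untreated KO, 66.4% to 73.4% in untreated WT, 82.1% to 85.8% in KO CMC and 69.3% to 80.3% in WT CMC libraries, of 71 to 201 reads a library. Most reads thus carried an insertion there in every library, with WT CMC overlapping both untreated groups. The strain of the mice is not given in the labels. In the origin spacer, at base 12 before its run of A, the share was 5.21% ± 0.31 (SD, n = 3) in untreated KO and 3.20% ± 0.05 in untreated WT libraries, 5.47% ± 0.94 in KO CMC and 3.92% ± 0.77 in WT CMC libraries. These positions were named after their values were seen, and the difference was not tested.

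Among the spacers, depth over the origin of 32 bases was 5474, 5577 and 5364 in untreated KO and 1744, 1569 and 1641 in untreated WT libraries (log2 1.73, SE 0.05, limma adjusted p = 5.01e-08), and 1.88 higher in KO after CMC. Its neighbours mt-Tn and mt-Tc differed by 1.82 and 1.65. The spacer of 5 bases between mt-Te and mt-Cytb (chrM:14140-14144) had 2523, 2614 and 2537 in untreated KO and 4139, 4384 and 3947 in untreated WT libraries (-0.70, SE 0.05, adjusted p = 6.55e-06). After CMC its groups overlapped, with 4073, 4310 and 3979 in KO and 3722, 3068 and 5144 in WT (0.08, adjusted p = 0.670). Scaled by mRNA depth, the differences between KO and WT over both spacers shift by -1.24 in untreated and -1.59 in CMC libraries. The other 13 spacers are of 1 to 3 bases and share their reads with the genes beside them. Of all 15, 10 rose, 3 fell and 2 did not pass in untreated KO against WT. Of all 53 regions 94.3% passed, 75.5% higher and 18.9% lower, so the spacers were close to the chromosome as a whole.

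Of the nuclear genes for processing, modifying or charging mitochondrial tRNAs, more rose than fell in KO. Of a list of 29 such genes, 28 were tested in untreated libraries, where 11 rose, 4 fell and 13 did not pass (edgeR quasi-likelihood test, Benjamini-Hochberg adjusted), against 29.2% higher and 28.7% lower among all 12228 genes tested. The median log2 difference of the list was 0.28, that of all genes -0.00. Of the genes for cutting tRNA ends, the RNase P subunit Trmt10c rose by 0.51 (131, 114 and 125 counts against 78, 73 and 84) and the 3′ endonuclease Elac2 by 0.86. Hsd17b10, which binds TRMT10C, did not pass (-0.10, adjusted p = 0.259), and Prorp, the nuclease subunit, was not found under that name and is not used here. The largest rises were of Trnt1, which adds the CCA end (1.26; 265, 267 and 239 counts against 104, 93 and 96), of the pseudouridine synthase Pus1 (1.19) and of Yrdc (1.02), which makes the precursor for a modified adenosine beside the anticodon. Osgepl1, which places that modification in mitochondria, fell most (-1.36; 149, 114 and 134 counts against 315, 312 and 301). After CMC 11 rose, 6 fell and 10 of 27 did not pass, where 27.1% of all genes were higher and 27.2% lower. Trnt1 (1.40), Qtrt1 of queuosine synthesis (1.29), Osgepl1 (-1.23) and Pus1 (1.159) changed most, Elac2 rose (0.75), Hsd17b10 fell (-0.35), and Trmt10c did not pass (0.27, edgeR adjusted p = 0.0980).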

How the data were processed

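The submitters' processing notes name mm10, DESeq2 1.16.1, featureCounts 1.5.1, HISAT2 2.0.5 and SAMtools 1.5, without their roles. The deposited per-base tables hold read counts at each base by kind and direction, and the deposited gene tables raw counts. A deposited table of log2 fold changes and p-values was not used here. The sources used here give neither strand setting nor batch. Depth per region, plus 1 read, was scaled by TMM over 12786 nuclear genes and tested with limma 3.58.1; gene counts and deletions (at least 20) with edgeR 4.0.16; p was adjusted by Benjamini-Hochberg and called at 0.05. Share tests added 0.5. R 4.3.3 and DESeq2 1.42.0 (alternatives) were used, and scripts were tested on simulated data. Nuclear counts of 2683284 to 3187748 per library, and read numbers at each base, limit precision. Named were mt-Tf, mt-Tv, mt-Tl1, mt-Tl2, the 3 largest and 3 smallest called differences (2 for CMC), spacers of at least 5 bases, base 9, the 10 positions of highest share, called positions, 4 enzymes of end processing and up to 4 called enzymes. The regions and lists were chosen with earlier results of these data known. The labels give untreated and CMC libraries of a genotype the same replicate numbers, without saying whether these share RNA. Correlations of same-numbered deviations ran from -0.05 to 0.01 and those of other-numbered ones from -0.02 to 0.03. Such small values cannot show whether libraries were paired. The main fits were unpaired, and the replicate number as a block was an alternative setting.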

Additional observations from a re-analysis of the deposited data

Results flagged for a closer look

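The effect of CMC on depth differed between KO and WT, by the test of the difference itself, for 3 tRNA genes and 3 spacers. Of all 53 regions 30.2% passed this test, 26.4% higher and 3.77% lower. The differences of the log2 effects (KO minus WT) were 0.83 for mt-Td, -0.55 for mt-Ti, -0.56 for mt-Ts1, 0.76 for the base between mt-Td and mt-Co2, 0.42 for the base between mt-Nd3 and mt-Tr, and 0.78 for the 5 bases between mt-Te and mt-Cytb (limma adjusted p from 0.0218 to 0.0309). The mt-Td gene and the base after it share reads. Scaled by mRNA depth, the mt-Td difference was 0.47 (limma adjusted p = 0.0636). With 1 library left out, the mt-Ti call was lost in 9 of 12 fits. The calls for mt-Td and mt-Ts1 were each lost in 3 of 12. The spacer calls were not checked in this way.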

How the results depend on the processing

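The tRNA depth calls between KO and WT were kept under scaling by nuclear totals or DESeq2 size factors, except mt-Tl2 in untreated libraries with nuclear totals (-0.31), where mt-Tk passed (0.39). Scaling by mitochondrial mRNA depth, chosen after seeing the data, reversed these log2 differences: in untreated libraries mt-Tv (-0.024), mt-Tw (-0.65), mt-Ts1 (-0.54), mt-Tk (-0.97), mt-Tg (-0.93), mt-Tr (-0.22) and mt-Tp (-0.77). In CMC libraries it reversed mt-Tv (-0.21), mt-Ti (-0.60), mt-Tq (-0.14), mt-Tw (-1.01), mt-Ty (-0.43), mt-Ts1 (-1.46), mt-Td (-1.49), mt-Tk (-1.59), mt-Tg (-1.16), mt-Tr (-0.039) and mt-Tp (-1.22). For CMC against untreated in KO it reversed mt-Tr (-0.28) and mt-Te (-0.17). The flank ratio of mt-Tr after CMC reversed with 100 adjoining bases as flanks (0.14). Genotype differences of the CMC effect numbered 5 when scaled by mRNA depth and 0 to 7 with 1 library left out. With the replicate block, forward-share calls fell from 11 to 6 in untreated and from 9 to 5 in CMC libraries. The block gave 20 depth calls between untreated KO and WT, without mt-Tl2. Without 1 library forward-share calls were 7 to 9 in untreated and 6 to 11 in CMC libraries. With a minimum share of 0.1%, 2 member positions passed for mismatches in untreated KO against WT, 16 in WT and 29 in KO after CMC against untreated, and with a minimum depth of 1000, 1 in KO. Without 1 untreated library 0 to 1 passed between genotypes. Deletion calls after CMC in KO were 1 with a minimum of 100 deletions and 2 with limma, and in WT 1 with limma. The cause of these changes was not tested. Low read depth limits mt-Tk, mt-Td, mt-Tl2, mt-Tt and mt-Tv, and after CMC also mt-Ts2 and, in WT, mt-Tf.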
